A study of Mus musculus with 6 samples.

Results

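A set of 46 genes of mitosis was followed in hearts of tumour-bearing mice given doxorubicin, ginsenoside Rh2 or both. They are the cyclins and kinases that start mitosis, the kinesins that build and drive the spindle, the proteins that pull the chromatids apart and divide the cell, and the factors that switch these genes on. The members were a fixed list of 46 gene symbols, looked up in the authors' table of 45777 mouse genes. All 46 were in the table, and each averaged 10 counts or more across the 6 libraries, the minimum for a test. The lowest mean was 32.2 counts, for Cdc25c, which passed only through the libraries without Dox.

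RNA was taken from the heart of BALB/c nude mice (CAnN.Cg-Foxn1nu/Crl), labelled as 6 weeks of age, and each library was a pool of 5 hearts. Every group, Control included, carried a subcutaneous tumour of MDA-MB-231, a human breast cancer cell line, and the strain lacks the thymus and so most T cells. Control received neither drug. Rh2-20 and Rh2-30 received daily injections of Rh2, a steroid-like saponin of ginseng, at 20 or 30 mg/kg in PBS with Tween 80. Dox received doxorubicin in saline at 2 mg/kg on alternate days, to a cumulative dose of 22 mg/kg, and Rh2-20 + Dox and Rh2-30 + Dox received both, over a course of 3 weeks. There was 1 library per condition, so the only spread that a test could use was that among libraries that also differed in Rh2 dose.

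In a dividing cell, cyclin B binds Cdk1, Cdc25 phosphatases switch the pair on, and Polo and Aurora kinases carry the signal to centrosomes, chromosomes and the midzone. Kinesin motors then separate the poles and align the chromosomes, the anaphase promoting complex releases separase to cut sister chromatids apart, and a contractile ring closes between the daughters. Most of these genes are switched on together late in the cell cycle by B-Myb and FoxM1, through a promoter element called the cell cycle homology region, often beside CCAAT boxes. Adult heart muscle cells rarely divide, and much of the division in an adult heart is in endothelial cells, fibroblasts and blood-derived cells. Doxorubicin intercalates in DNA and poisons topoisomerase II.

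The libraries held 86164411 to 90621002 counts. All 6 cardiomyocyte markers (Myh6, Actc1, Tnnt2, Tnni3, Ttn and Ryr2) were present in each library, with a summed level of 84349 to 113509 CPM, which are counts scaled to a common library total (here after TMM scaling). Of 6 T cell markers, 5 had more than 3 counts in some library and Cd3d was at 0 in all, and their sum was 1.36 to 3.09 CPM with Dox and 1.29 to 1.75 CPM without. The markers did not move together. Of the 3 tested, Cd3e was higher in each library with Dox, and the other 2, Cd4 and Trac, were lower. The Rh2-30 library stood apart. Its 4 atrial markers summed to 1662 CPM against 45.7 to 403 CPM in the other libraries, and its 5 fat markers to 281 CPM against 9.09 to 39.1 CPM. The Dox comparisons are also given without it or without both Rh2-30 libraries, while Rh2-30 against Control and the pair at 30 mg/kg rest on it.

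Mitotic genes were lower in the hearts that received Dox. In 42 of 46 members each of the 3 libraries with Dox lay below each of the 3 without, which 9.16% of all 18328 tested genes did, and no member showed the opposite (7.85% of all genes). The log2 fold change was below 0 in 44 of 46 members (52.8% of all genes), with a median of -1.35 against -0.01 over all tested genes. By edgeR's quasi-likelihood test, 40 of 46 members were lower at an unadjusted p under 0.05 (5.91% of all genes) and 0 were higher (4.2%). After Benjamini-Hochberg adjustment over all tested genes, 1 member was lower, Nek2, where 0.0109% of all genes were, and 0 were higher (0.0164%). DESeq2's Wald test at the same threshold called 29 members lower (1.69% of the 16479 genes it gave an adjusted p) and 0 higher (0.886%). Cdc25c is in these counts and in others below, although passing only through the libraries without Dox meant it could only come out lower. Among the 44 members with a count in every library, 42 were below 0, with a median of -1.29. Of these, 38 were lower at an unadjusted p under 0.05 in edgeR's test (6% of the 18892 genes so chosen). In bulk tissue, fewer dividing cells and less RNA of these genes per cell cannot be told apart.

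**Figure D1:**
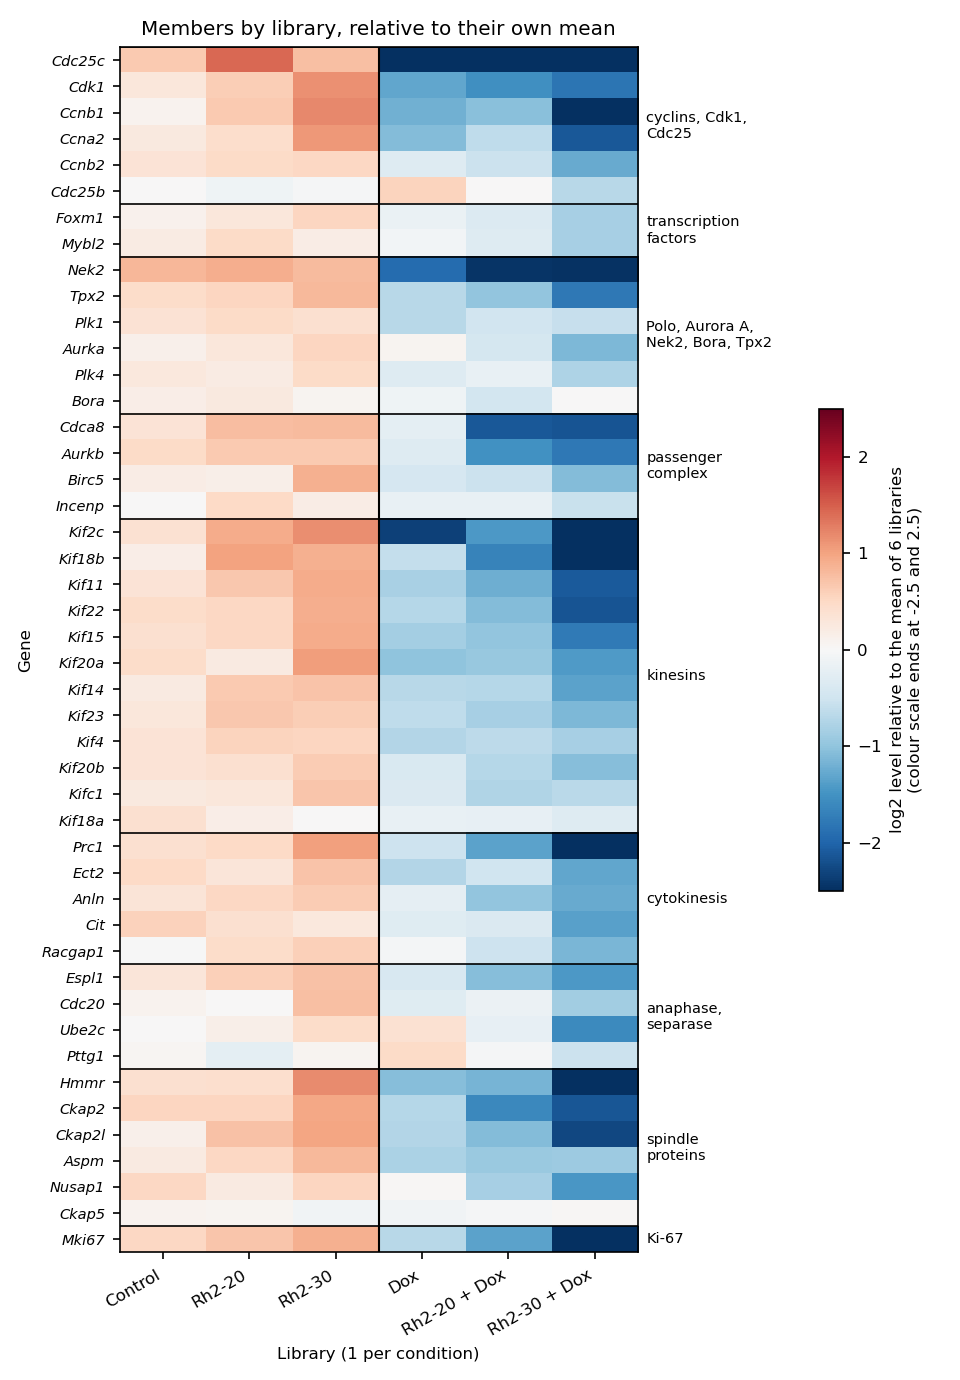
Level of each of the 46 members (rows, by role) in each of the 6 libraries (columns), as log2 of the level relative to the gene's own mean over the libraries, with 0.5 counts added. The 3 columns with Dox on the right are blue for most genes, and Rh2-30 + Dox was the lowest library for 40 of 46 members.

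**Figure D2:**
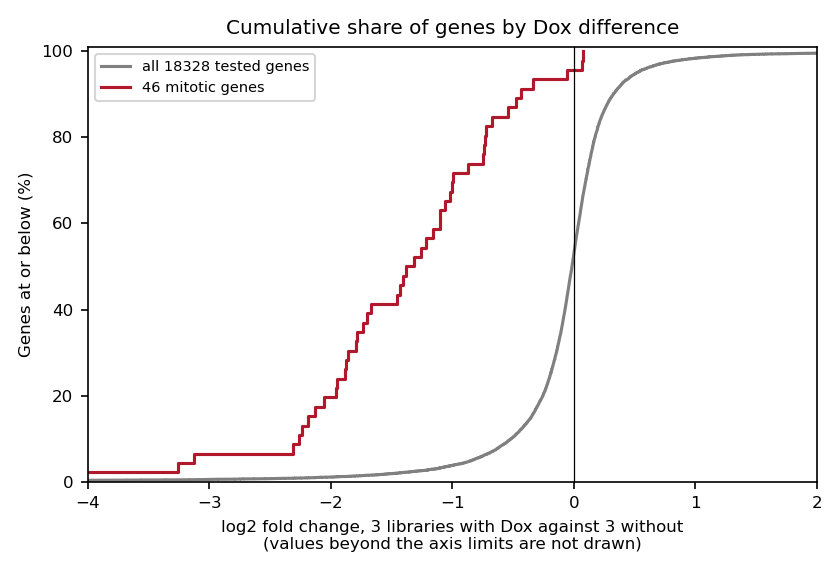
Cumulative share of genes (vertical axis, percent) at or below each log2 fold change of Dox against no Dox (horizontal axis), for the 46 members in red and all 18328 tested genes in grey. The median of the members was -1.35 and that of all tested genes -0.01.

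Levels per length, as mean FPKM over the 6 libraries, ran from 0.145 for Cdc25c to 22.5 for Ckap5, with Mki67 at 5.90 and Cdc25b at 5.32, and most members were below 1 FPKM. Ckap5, a microtubule polymerase also used outside mitosis, had 17317, 18383 and 17372 counts without Dox and 15318, 17536 and 17339 with Dox. These values overlapped, and the log2 fold change was -0.05 (SE 0.09, n = 3 and 3).

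The promoters of the members shared sequence that was not used to choose them. RefSeq windows of 250 bases before to 50 after the gene start (GRCm38.p6) were available for 38 of the 46 members and for 27025 genes in all. The core of the cell cycle homology region, TTTGAA on either strand, was in 28 of the 38 (73.7%) against 20.2% of all genes. Counting only those that start between 50 bases before and 44 after the gene start, it was in 24 of 38 (63.2%) against 5.72%. The variant TTCGAA, which is its own complement, was in 1 of 38 (2.63%) against 1.8%. CCAAT on either strand was in 27 of 38 (71.1%) against 41.1%, at 2 or more positions in 18 (47.4%) against 13.3%, and together with TTTGAA in 24 (63.2%) against 8.97%. In Cdca8 the element overlaps a CCAAT box on the other strand by 1 letter. A match of these letters is a description and not a bound site. The 28 members with TTTGAA had a median log2 fold change of -1.42 and the 10 without it -0.87. Counting only TTTGAA near the start, the 24 with it had -1.35 and the 14 without it -1.08. Neither difference was tested. In some members, among them Pttg1, Kif2c and Kif14, the whole window lies inside the listed span of the gene, at a start other than its outermost. Of the 40 member windows, 30 had their sequence after the start in an annotated transcript of the gene. A member without TTTGAA here may hold it at another start.

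The promoters below run from 120 bases before the start to 30 after, 5′ to 3′ on the strand of the gene, with TTTGAA and CCAAT, or their complements, in capitals. The first 6 are shown because they hold the element near the start and belong to the kinase, cyclin, kinesin, cytokinesis, spindle and passenger groups. Nek2 is shown as the member past the adjusted threshold, and Pttg1 as a member whose libraries overlapped. They lie at chr10:69352883-69353032, minus strand (Cdk1), chr9:70421525-70421674, minus strand (Ccnb2), chr9:61946770-61946919, minus strand (Kif23), chr7:80294331-80294480, plus strand (Prc1), chr11:40733408-40733557, minus strand (Hmmr), chr4:124936888-124937037, minus strand (Cdca8), chr1:191821353-191821502, plus strand (Nek2) and chr11:43425952-43426101, minus strand (Pttg1).
Cdk1: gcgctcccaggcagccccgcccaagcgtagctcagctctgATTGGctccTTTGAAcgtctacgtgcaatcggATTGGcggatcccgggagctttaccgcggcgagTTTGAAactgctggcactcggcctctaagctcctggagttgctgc
Ccnb2: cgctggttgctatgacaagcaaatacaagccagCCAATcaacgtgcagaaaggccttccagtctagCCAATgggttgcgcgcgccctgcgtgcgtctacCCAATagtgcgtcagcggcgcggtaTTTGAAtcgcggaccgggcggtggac
Kif23: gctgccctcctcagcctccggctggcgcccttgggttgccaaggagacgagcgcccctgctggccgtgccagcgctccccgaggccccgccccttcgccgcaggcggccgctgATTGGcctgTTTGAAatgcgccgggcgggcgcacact
Prc1: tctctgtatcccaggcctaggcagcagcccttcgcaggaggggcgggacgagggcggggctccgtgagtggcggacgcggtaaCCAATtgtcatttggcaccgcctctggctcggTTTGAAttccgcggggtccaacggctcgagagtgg
Hmmr: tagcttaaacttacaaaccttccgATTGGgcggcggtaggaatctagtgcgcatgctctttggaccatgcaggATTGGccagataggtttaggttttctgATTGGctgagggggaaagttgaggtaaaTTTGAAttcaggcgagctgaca
Cdca8: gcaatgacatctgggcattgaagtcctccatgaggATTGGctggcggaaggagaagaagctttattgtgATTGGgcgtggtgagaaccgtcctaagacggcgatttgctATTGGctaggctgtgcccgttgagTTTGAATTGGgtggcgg
Nek2: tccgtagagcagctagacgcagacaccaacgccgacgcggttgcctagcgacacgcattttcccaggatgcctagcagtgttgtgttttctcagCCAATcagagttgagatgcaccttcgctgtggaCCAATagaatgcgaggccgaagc
Pttg1: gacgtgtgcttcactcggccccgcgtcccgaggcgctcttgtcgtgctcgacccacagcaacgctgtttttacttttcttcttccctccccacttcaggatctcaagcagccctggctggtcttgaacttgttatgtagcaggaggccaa
In this stretch Cdk1 holds the element at 2 places and CCAAT at 2, Ccnb2 holds CCAAT at 3 evenly spaced places before the element, and Nek2 holds CCAAT at 2 places and no TTTGAA. Pttg1 holds neither.

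**Figure D3:**
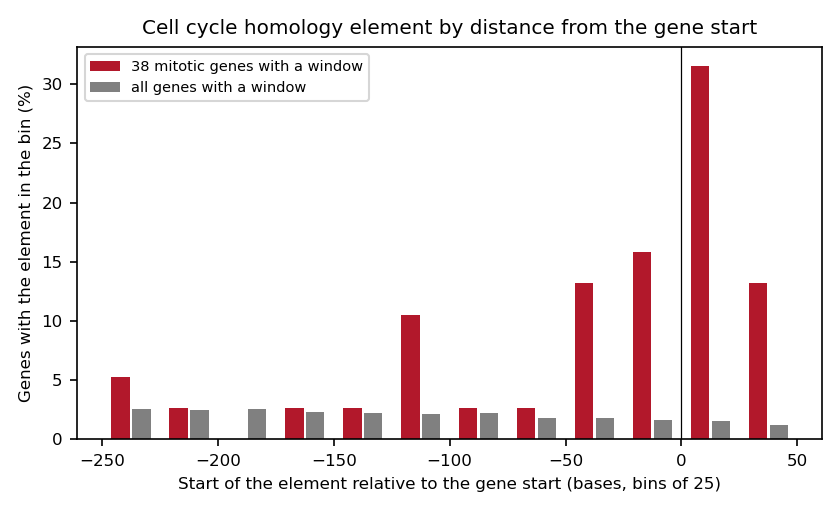
Share of genes (vertical axis, percent) with TTTGAA on either strand starting in each bin of 25 bases from the gene start (horizontal axis), for the 38 members with a window in red and all genes with a window in grey. The members stood highest in the bin just after the start, at 31.6% against 1.54% of all genes.

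Of the genes that start mitosis, 5 of 6, Cdc25c among them, did not overlap between libraries with and without Dox. The median log2 fold change of the group was -1.99. Cdk1, the kinase that starts mitosis, had 155, 209 and 320 counts without Dox and 52, 48 and 37 with Dox. All 3 libraries with Dox were low, and the highest of them was below the lowest without, with a log2 fold change of -2.27 (SE 0.30, n = 3 and 3). Ccnb1, which encodes cyclin B1, the partner of Cdk1, had 140, 224 and 345 counts without Dox and 58, 70 and 22 with Dox. Ccna2, the S and G2 phase cyclin A2, had 376, 461 and 761 counts without Dox and 151, 223 and 75 with Dox. Neither cyclin overlapped between the groups, with log2 fold changes of -2.19 (SE 0.47, n = 3 and 3) for Ccnb1 and -1.79 (SE 0.40, n = 3 and 3) for Ccna2, and in both Rh2-30 was the highest library and Rh2-30 + Dox the lowest.

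The phosphatases that activate Cdk1 differed from each other. Cdc25c had 47, 88 and 58 counts without Dox and 0, 0 and 0 with Dox. It was listed at 0 in each library with Dox, so that against a floor of 3 counts per library it was at least 15.8-fold lower in Dox than in Control, at least 29.9-fold lower in Rh2-20 + Dox than in Rh2-20, and at least 17.7-fold lower in Rh2-30 + Dox than in Rh2-30. StringTie assigns counts through transcript models, and whether a listed 0 reflects an absence of reads was not tested. Cdc25b, a phosphatase of the same family expressed at a higher level, overlapped between the groups, with a log2 fold change of 0.08 (SE 0.28, n = 3 and 3). The remaining member, Ccnb2 (cyclin B2), had a log2 fold change of -1.10 (SE 0.28, n = 3 and 3) without overlap.

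The transcription factors had smaller log2 fold changes than the median member. Foxm1 had 382, 470 and 589 counts without Dox and 321, 308 and 209 with Dox. Mybl2, which encodes B-Myb, had 172, 225 and 194 counts without Dox and 144, 132 and 87 with Dox. Neither overlapped between the groups, and the log2 fold changes were -0.74 (SE 0.21, n = 3 and 3) for Foxm1 and -0.67 (SE 0.25, n = 3 and 3) for Mybl2. At Rh2 doses of 0 and 20 mg/kg neither was 2-fold lower with Dox, and at 30 mg/kg both were.

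Nek2, the kinase that loosens the link between centrosomes, was the member called after adjustment. It lies at chr1:191821449-191833049 (GRCm38) and had 136, 155 and 151 counts without Dox and 20, 15 and 14 with Dox. The libraries without Dox were close together at 1.65 ± 0.0659 CPM (SD, n = 3), as were those with Dox at 0.188 ± 0.0437 CPM (SD, n = 3). The groups were far apart, with a log2 fold change of -3.13 (SE 0.28, n = 3 and 3) and an adjusted p of 0.0401 by edgeR's quasi-likelihood test. Leaving out any 1 of the 6 libraries ended that call, with adjusted p from 0.0588 to 0.185, and Rh2 dose as a block gave an adjusted p of 0.476 in the same test, with 38 of 46 members lower at an unadjusted p under 0.05 (5.1% of all genes). The log2 fold change was -3.03 to -3.33 in those fits without 1 library.

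Among the other kinases and their activators, all 5 were also lower in each library with Dox. Tpx2, which activates Aurora A on the spindle, had 451, 514 and 652 counts without Dox and 203, 181 and 98 with Dox. The gap between the groups was wide, with a log2 fold change of -1.71 (SE 0.29, n = 3 and 3). The range of the rest was -0.99 for Plk1, the Polo kinase of mitotic entry, to -0.33 for Bora, the cofactor through which Aurora A activates Plk1. Plk4, which starts centriole duplication, and Aurka lay between, at -0.72 and -0.75. Aurka and Bora did not reach an unadjusted p of 0.05. Their lowest library without Dox was only 0.04 and 0.05 above their highest with Dox on the log2 scale.

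The 4 genes of the chromosomal passenger complex, which corrects attachments at the kinetochore and then marks the midzone, did not overlap, with a median log2 fold change of -1.39. Aurkb, its kinase, had 150, 183 and 192 counts without Dox and 86, 41 and 32 with Dox. Cdca8, which encodes its subunit borealin, had 67, 98 and 104 counts without Dox and 45, 13 and 12 with Dox. In both, the libraries with Rh2 and Dox were lower than Dox, and the log2 fold changes were -1.67 (SE 0.40, n = 3 and 3) for Aurkb and -1.87 (SE 0.57, n = 3 and 3) for Cdca8. Birc5 (survivin) and Incenp, the scaffold, had log2 fold changes of -1.10 and -0.54.

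All 12 mitotic kinesins were lower in each library with Dox, and all 12 had an unadjusted p under 0.05, with a median log2 fold change of -1.58. Kif11, the motor that pushes the poles apart, had 641, 866 and 1088 counts without Dox and 287, 237 and 122 with Dox. Kif15, which supports Kif11 in that task, had 605, 703 and 985 counts without Dox and 254, 252 and 139 with Dox. In both motors Dox, Rh2-20 + Dox and Rh2-30 + Dox stood in falling order, and the log2 fold changes were -1.96 (SE 0.33, n = 3 and 3) for Kif11 and -1.79 (SE 0.27, n = 3 and 3) for Kif15.

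Kif2c and Kif18b had the largest log2 fold changes among the 12 kinesins. Kif2c, a depolymerase of the kinetochore, had 113, 178 and 221 counts without Dox and 17, 35 and 0 with Dox. Kif18b, which acts with Kif2c on astral microtubules, had 76, 148 and 144 counts without Dox and 45, 23 and 3 with Dox. The Rh2-30 + Dox library was at or under the floor for both, and their log2 fold changes were -3.26 (SE 0.95, n = 3 and 3) for Kif2c and -2.31 (SE 0.77, n = 3 and 3) for Kif18b. In Rh2-30 + Dox, Kif2c was at least 67.5-fold lower than in Rh2-30. That bound rests on a listed 0 in 1 library, and whether it reflects an absence of reads was not tested. In Dox against Control the log2 ratio of Kif2c was -2.71. Kif18a, a relative that damps chromosome movement, had the smallest difference of the 12, with a log2 fold change of -0.44 (SE 0.14, n = 3 and 3).

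Motors that ride on chromosome arms were also lower in each library with Dox. Kif4, a chromosome motor that also limits midzone length, had 578, 719 and 752 counts without Dox and 276, 319 and 267 with Dox. Kif22, the other chromosome motor, had 155, 176 and 243 counts without Dox and 69, 58 and 26 with Dox. Kif4 was nearly level across the libraries with Dox whereas Kif22 was lowest in Rh2-30 + Dox, and the log2 fold changes were -1.22 (SE 0.13, n = 3 and 3) and -1.86 (SE 0.38, n = 3 and 3).

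Kif23, a motor of the centralspindlin complex, had 958, 1355 and 1373 counts without Dox and 514, 487 and 377 with Dox. Kif20a, which brings the passenger complex to the midzone, had 176, 161 and 303 counts without Dox and 64, 73 and 50 with Dox. Kif14, which binds citron kinase at the midbody, had 270, 391 and 430 counts without Dox and 144, 155 and 95 with Dox. None of these overlapped between the groups, and the log2 fold changes were -1.38 (SE 0.17, n = 3 and 3), -1.73 (SE 0.29, n = 3 and 3) and -1.43 (SE 0.24, n = 3 and 3). Kif20b and Kifc1, which bundles spindle poles, had values of -1.16 and -1.01.

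The 5 cytokinesis genes did not overlap, with a median log2 fold change of -1.26. Prc1, which bundles the midzone microtubules, had 590, 687 and 1029 counts without Dox and 313, 195 and 67 with Dox. Ect2, which activates RhoA at the cleavage site, had 872, 827 and 1146 counts without Dox and 374, 483 and 260 with Dox. Anln (anillin), a scaffold of the contractile ring, had 784, 969 and 1099 counts without Dox and 538, 346 and 271 with Dox. Among the libraries with Dox, all 3 genes were lowest in Rh2-30 + Dox, and the log2 fold changes were -1.95 (SE 0.51, n = 3 and 3), -1.32 (SE 0.22, n = 3 and 3) and -1.26 (SE 0.27, n = 3 and 3). Cit, the citron kinase of the midbody, and Racgap1, the partner of Kif23, had values of -1.02 and -0.87. For Racgap1 the groups were nearly tied, with Control only 0.03 above Dox on the log2 scale.

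The genes of chromatid separation were divided. Espl1, which encodes separase, had 423, 561 and 654 counts without Dox and 264, 180 and 133 with Dox. Its groups did not overlap, and the log2 fold change was -1.46 (SE 0.28, n = 3 and 3). Pttg1, which encodes securin, the inhibitor of separase, overlapped with a log2 fold change of 0.06 (SE 0.27, n = 3 and 3), as did Ube2c, an enzyme of the anaphase promoting complex, with -0.48 (SE 0.45, n = 3 and 3). Cdc20, the activator of that complex, did not overlap and had -0.73 (SE 0.31, n = 3 and 3).

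Of the 6 spindle and microtubule proteins, 5 did not overlap. Hmmr, a spindle protein and hyaluronan receptor, had 181, 198 and 353 counts without Dox and 65, 67 and 18 with Dox. Ckap2 had 287, 311 and 440 counts without Dox and 123, 71 and 47 with Dox. Ckap2l, its relative, had 293, 481 and 601 counts without Dox and 163, 139 and 57 with Dox. In all 3 the Rh2-30 + Dox library was the lowest, and the log2 fold changes were -2.24 (SE 0.50, n = 3 and 3), -2.05 (SE 0.38, n = 3 and 3) and -1.89 (SE 0.41, n = 3 and 3).

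Aspm, which focuses the spindle poles, had 1199, 1606 and 2066 counts without Dox and 603, 600 and 574 with Dox. The libraries with Dox were nearly level, and the log2 fold change was -1.41 (SE 0.16, n = 3 and 3). Nusap1, which links microtubules to chromatin, had -1.06 (SE 0.36, n = 3 and 3). Mki67, the proliferation antigen Ki-67 that coats mitotic chromosomes, had 8783, 10708 and 13001 counts without Dox and 3822, 2664 and 677 with Dox. Every library with Dox was low and Rh2-30 + Dox the lowest by far, and the log2 fold change was -2.13 (SE 0.55, n = 3 and 3).

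At each Rh2 dose, the library with Dox was set against the library without it, 3 pairs that share no library. Without Rh2, 18 of 46 members were at least 2-fold lower with Dox (3.58% of all tested genes), with a median log2 ratio of -0.83. At 20 mg/kg, 29 were (2.87%), with a median of -1.18, and at 30 mg/kg 39 were (12.1%), with a median of -2.0. By any amount, 43, 44 and 45 members were lower (50.5%, 49.7% and 53% of all genes). No member was 2-fold higher in any of the 3 pairs, where 5.44%, 4.09% and 2.4% of all genes were. On log2(FPKM + 1) the 2-fold counts were 1, 2 and 12, and the shares of all genes on that scale were not computed. The median over all tested genes lay between -0.03 and 0.00 in these pairs.

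In all, 16 members were 2-fold lower in all 3 pairs, as 0.497% of all genes were, and none was 2-fold higher in all 3 (0.186%). They were Aspm, Ccna2, Ccnb1, Cdc25c, Cdk1, Ckap2, Hmmr, Kif11, Kif15, Kif20a, Kif22, Kif2c, Kif4, Mki67, Nek2 and Tpx2. In the pairs at 0 and 20 mg/kg alone, the number 2-fold lower in both was also 16 (0.878%). By any amount, 42 were lower in all 3 (17.6% of all genes), and the exceptions were Cdc25b, Ckap5, Pttg1 and Ube2c. Nek2 differed by a similar amount at each dose, with log2 ratios of -2.75, -3.35 and -3.26, whereas Mki67 went from -1.21 to -2.03 and -4.14. With 1 library on each side these ratios have no test.

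**Figure D4:**
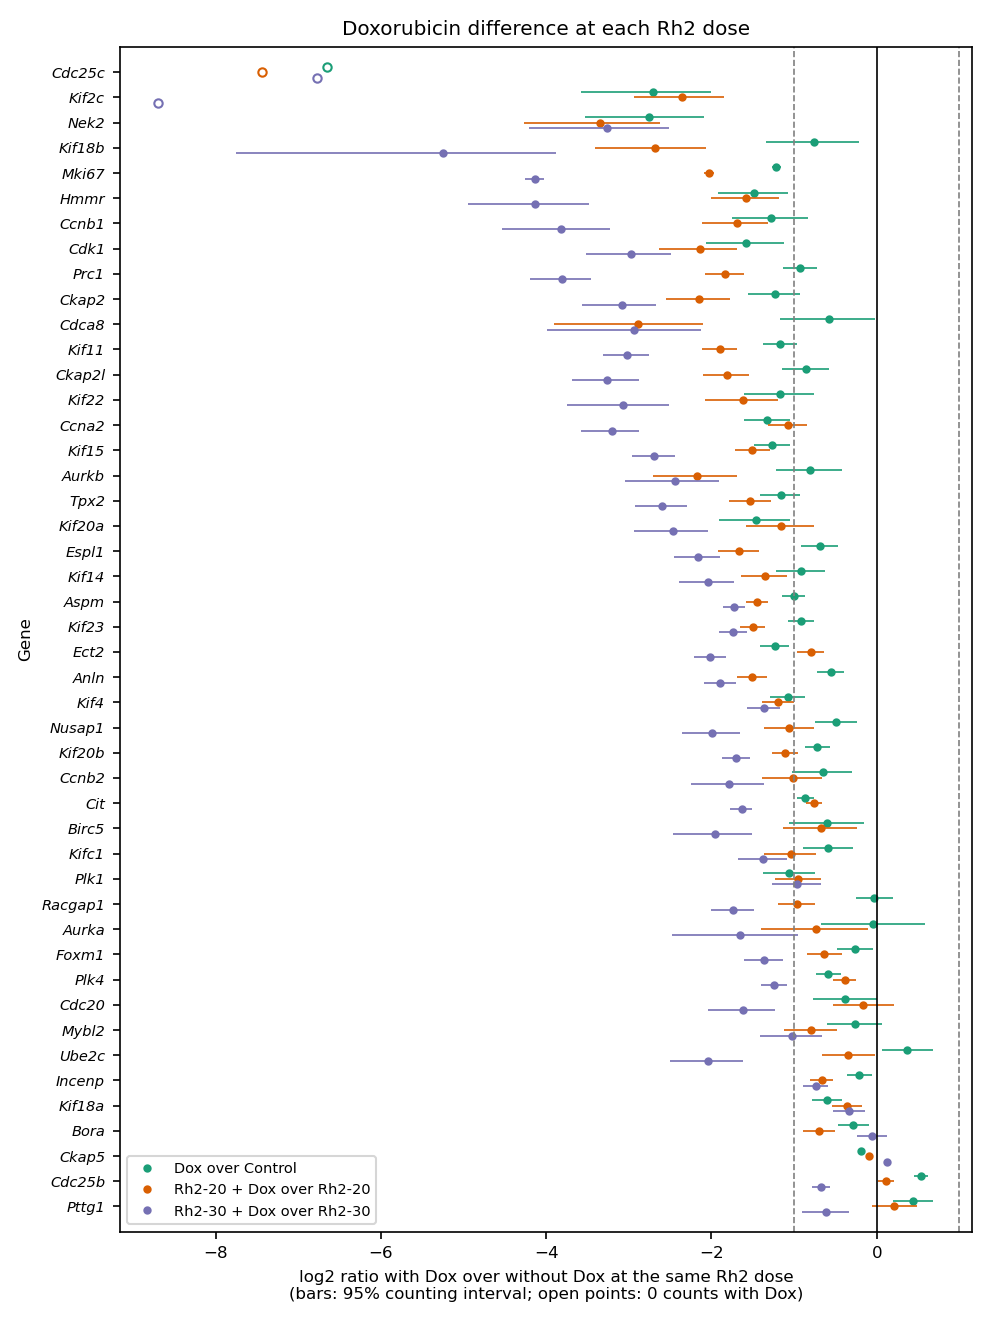
Log2 ratio of the library with Dox over the library without (horizontal axis) for each member (rows) at Rh2 doses of 0, 20 and 30 mg/kg. Bars are 95% intervals for counting error only, open points have 0 counts with Dox, and dashed lines mark 2-fold, which 18, 29 and 39 members passed downwards.

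The change of the Dox difference with Rh2 dose was tested as an interaction in edgeR's quasi-likelihood fit. After adjustment, 0 of 46 members and 0 of all 18328 genes (0%) passed, and the lowest adjusted p of a member was 0.519 (edgeR). At an unadjusted p under 0.05, 21 members had a difference that was more negative at the higher dose (5.83% of all genes) and 0 had the reverse (3.65%). With Rh2 as present or absent in place of its dose, 7 members passed at that level (1.82% of all genes), and without the Rh2-30 library, with 1 residual degree of freedom, 8 did (1.8%). Anln had the lowest unadjusted p of the members, 0.0022, with a log2 interaction of -1.35 at 30 mg/kg.

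The study asked whether Rh2 alters what Dox does to the heart. Both Rh2 + Dox libraries were set against the same Dox library, and most members were lower than in it with either dose. In Rh2-20 + Dox, 34 of 46 members were lower than in Dox by any amount (49.1% of all genes) and 3 were 2-fold lower (3.44%): Aurkb, Cdca8 and Kif18b. In Rh2-30 + Dox, 42 were lower by any amount (52.8%) and 23 were 2-fold lower (7.35%), with a median log2 ratio of -0.98 against -0.24 in Rh2-20 + Dox. On log2(FPKM + 0.1) the 2-fold counts were 1 and 11, and on log2(FPKM + 1) they were 0 and 3. The shares of all genes on these scales were not computed. Mki67 in Rh2-30 + Dox was 5.83-fold lower than in Dox, and Prc1 4.80-fold lower. No member was 2-fold higher than in Dox with either dose (3.08% and 2.76% of all genes). Kif2c was higher in Rh2-20 + Dox than in Dox, 35 against 17 counts, and Plk1 was above Dox with both doses.

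Against Control, all 46 members were lower in Rh2-20 + Dox and in Rh2-30 + Dox (49.1% and 50.8% of all genes), and 24 and 36 were 2-fold lower (3.62% and 6.85%). None was 2-fold higher in either (5.13% and 4.08%). These comparisons share the Control library with those that follow.

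Rh2 without Dox gave small differences the other way. In Rh2-20, 11 of 46 members were lower than in Control (49.5% of all genes), the median log2 ratio was 0.13, and no member was 2-fold higher (3.35%) or lower (2.8%). In Rh2-30, 7 were lower (46.3%), the median was 0.42, and 1 member, Ccnb1, was 2-fold higher (8.48%) with a log2 ratio of 1.11. No member was 2-fold lower in Rh2-30 (1.63%). Rh2-30 was the highest library for 31 of 46 members (26.1% of all genes) and Rh2-30 + Dox the lowest for 40 (23.1%).

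Relative to each gene's mean, the median level of the members on the log2 scale was 0.31 in Control, 0.48 in Rh2-20, 0.71 in Rh2-30, -0.47 in Dox, -0.79 in Rh2-20 + Dox and -1.35 in Rh2-30 + Dox. The members followed each other closely over the 6 libraries. Pearson's r of each gene with the mean of the others was at least 0.78 for all but Bora (0.56), Cdc25b (0.36), Pttg1 (0.32) and Ckap5 (0.06). All points share the same 6 libraries and their scaling, so these are descriptions.

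Cell type markers moved with some of these values. The 4 atrial markers were 3.05 and 2.70 higher on the log2 scale with Dox at 0 and 20 mg/kg and -4.46 at 30 mg/kg, while most members were lower in all 3 pairs. Rh2-30 + Dox and Control were both low in atrial markers, at 75.3 and 45.7 CPM, and 36 members were 2-fold lower in the former (6.85% of all genes). These libraries also differed in other markers, given below, and the part of tissue content in the mitotic genes was not tested. Without both Rh2-30 libraries, 8 members were lower past the adjusted threshold in edgeR's quasi-likelihood test (0.169% of all genes) and 0 were higher (0.393%), where 103 genes in all passed against 5 with every library, and the median log2 fold change of the members was -1.14. Without them, 43 members did not overlap and were lower with Dox (22.3% of all genes, with 2 libraries a side). Leaving out those libraries was chosen after the data were seen.

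The 6 macrophage markers summed to 246 to 426 CPM with Dox and 359 to 538 CPM without, with log2 ratios of -0.19, -0.10 and -1.13 in the 3 pairs, against members' medians of -0.83, -1.18 and -2.0. The 6 fibroblast markers summed to 834 to 1241 CPM with Dox and 987 to 1511 CPM without, and the 6 endothelial markers to 1516 to 1769 CPM and 1619 to 1771 CPM. The 6 erythroid markers were at 1054 to 6912 CPM with Dox and 1646 to 2288 CPM without. The 5 B cell markers were at 1.29 to 2.95 CPM with Dox and 2.80 to 11.8 CPM without, with log2 ratios of -0.14, -0.23 and -3.19 in the 3 pairs, highest in Rh2-30 and lowest in Rh2-30 + Dox as most members were. None of these markers passed the adjusted threshold in edgeR's test. The macrophage, fibroblast, endothelial, erythroid, B cell, pericyte and smooth muscle, mesothelium, Schwann cell and fat sums were all lowest in Rh2-30 + Dox, and their part in the low mitotic genes of that library was not tested.

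**Figure D5:**
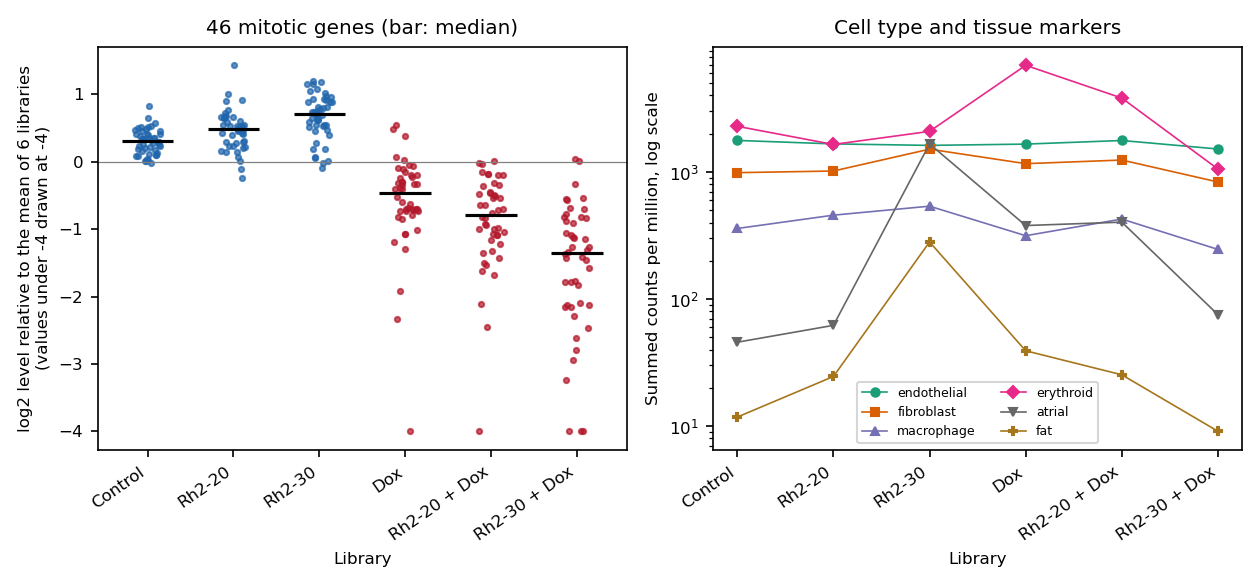
Left, the level of each of the 46 members relative to its own mean over the libraries (log2, points) with the median (bar), blue without Dox and red with Dox. Right, summed CPM of markers of 6 cell types or tissues (log axis) in the same libraries: atrial and fat markers peaked in Rh2-30 at 1662 and 281 CPM, and endothelial markers stayed between 1516 and 1771 CPM.

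Other genes of the pathway were read from 6 lists. None of their genes passed the adjusted threshold in edgeR's test, and the medians below stand beside -0.01 over all tested genes and -1.35 over the members. For the 15 subunits of the anaphase promoting complex it was -0.03, from -0.46 for Anapc15 to 0.49 for Anapc16. For the 11 genes of the DREAM and MuvB complexes, which hold or switch mitotic promoters, it was -0.01, from -0.35 for Lin9 to 0.27 for Tfdp2. For the 12 genes of the kinases and phosphatases that set mitotic entry and exit it was -0.07, from -0.95 for Pkmyt1, the kinase that restrains Cdk1, to 0.16 for Arpp19.

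For the 8 cyclins and kinases of G1 the median was -0.23, and all 8 were below 0, from -0.90 for Ccne1 (cyclin E1) to -0.09 for Ccnd3. For 27 other kinesin and kinesin subunit genes it was -0.05, from -1.21 for Kif17 to 0.12 for Kif2a. Kif17 had 47, 15 and 11 counts without Dox and 0, 14 and 18 with Dox. These values overlapped, with an SE of 1.09. For the 21 genes of the contractile ring, septins and abscission it was -0.11, from -2.52 for Cep55, a midbody protein, to 0.16 for Sept6. Cep55 had 134, 208 and 187 counts without Dox and 46, 22 and 21 with Dox, with no overlap and an SE of 0.39.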

How the data were processed

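RNA was sequenced from hearts of 6 groups of mice, 1 library per group, each a pool of 5 hearts, and each library was assigned to its group by its label. The authors trimmed the reads with Trimmomatic after bcl2fastq 2.20.0, aligned them to mm10 with HISAT2 2.1.0 and quantified genes with StringTie 2.1.3b on the UCSC annotation, as the submitters' processing notes and the methods state. The deposited read count values were whole numbers without normalization, and the deposited FPKM values, scaled to transcript length and sequenced fragments, served for levels between genes and as alternatives. The deposited TPM values were not used here. StringTie assigns reads among similar genes and overlapping transcripts, and the strand setting is not given in the sources used here.

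The software was edgeR 4.0.16 under R 4.3.3, with DESeq2 1.42.0 and limma 3.58.1 for alternatives. Plots used Python 3.11.15 and matplotlib 3.10.9. Of 45777 genes, the 18328 that averaged 10 counts or more per library were tested after TMM normalization. The 3 libraries with Dox were compared with the 3 without by a two-sided quasi-likelihood test in edgeR, with Benjamini-Hochberg adjustment over all tested genes and a threshold of 0.05. The common dispersion was 0.0694. Since no condition had a second library, p-values measure only the spread among libraries that also differed in Rh2 dose. The SE of a log2 fold change is its size divided by the square root of the test's F value. Ratios of 1 library to 1 used TMM-scaled counts with a prior count of 0.5, have no test, and have 95% intervals from the exact conditional binomial distribution that cover counting error only. The floor was 3 counts per library. The interaction of Dox with Rh2 dose left 2 residual degrees of freedom. Before use, the fits were tested on simulated data in which 200 genes changed 4-fold. Of the 200, the Dox comparison called 200 and the interaction 124. The simulated dispersion was lower than that of these data, and only genes with higher mean counts than Nek2 or Cdc25c were changed. The simulation therefore does not show how the fits perform for such members.

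All 46 members could be named. Counts per library are given for the 26 with the largest absolute log2 fold change and for groups with none among them, and of each other list the highest and lowest gene. Counts of Ckap5 were added after its values were seen, as were those of Cep55 and Kif17. The members, lists and tests were chosen with earlier results of these data known. Promoter sequences are from RefSeq, GRCm38.p6. No window was used for Ccna2, Bora, Kif20a, Tpx2, Incenp, Cdc25c, Aurkb and Foxm1. The alternatives were Rh2 dose as a block, DESeq2's Wald test and size factors, no filter, only genes with a count in every library, limma on log2(FPKM + 1), log2(FPKM + 1) and log2(FPKM + 0.1) ratios, a prior count of 2, a fold of 1.5, each library left out in turn, Rh2 as present or absent, and, added after seeing the data, both Rh2-30 libraries left out, the Rh2-30 library left out of the interaction, the pairs at 0 and 20 mg/kg alone, and Control in place of the matched library.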

Additional observations from a re-analysis of the deposited data

How the results depend on the processing

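The number of members past the adjusted threshold with Dox depended on the fit. It was 1 in edgeR's quasi-likelihood test, 0 with Rh2 dose as a block, 29 by DESeq2's Wald test, 0 by limma on log2(FPKM + 1), 0 to 0 when each library was left out in turn, and 8 without both Rh2-30 libraries, where 103 of all 18328 genes passed against 5 with every library. At an unadjusted p under 0.05, 38 members were lower with the block (5.1% of all genes) and 41 by limma (6.63%). Without 1 library, 35 to 40 were (4.77% to 5.23% of all genes). The number with no overlap between groups stayed within 1.5 times 42 under every alternative run for it. The 2-fold counts in the pairs at 0, 20 and 30 mg/kg were 1, 2 and 12 on log2(FPKM + 1). On that scale a member under 1 FPKM in the library without Dox cannot be 2-fold lower. On TMM-scaled counts, a fold of 1.5 gave 32 at 0 mg/kg. For Rh2 added to Dox, the 2-fold counts were 0 and 3 on log2(FPKM + 1) and 1 and 11 on log2(FPKM + 0.1) at 20 and 30 mg/kg. For Rh2-30 alone the 1 member was lost (0) on log2(FPKM + 1). Shares of all genes were not computed for the 2-fold counts on the FPKM scales or for the count at a fold of 1.5. The sign turned for Cdc25b to -0.0052 with Rh2 dose as a block and -0.033 by limma, and for Ube2c to 0.044 without both Rh2-30 libraries. Leaving out 1 library at a time gave log2 fold changes of -0.27 (without Dox) to 0.34 (without Rh2-30 + Dox) for Cdc25b and -0.23 (without Dox) to 0.28 (without Rh2-30 + Dox) for Pttg1, which also turned negative without Rh2-20 (-0.021). The cause of the changes other than those of scale was not tested. The labels carry no replicate numbers, and the fit with Rh2 dose as a block, which pairs the libraries by dose, is the paired analysis.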
